A study of Mus musculus with 14 samples.

Results

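The chromatin loops described here appeared on the way from mouse embryonic stem cells (ESCs) to neural precursor cells (NPCs) and were still called when the precursors had been differentiated in auxin, which removes the architectural protein CTCF. A loop is a pair of 10 kb genome bins joined more often than the caller MAPS expected. The members are the 8993 bin pairs present in both the NPC auxin and the NPC control list of MAPS and in neither the ESC auxin nor the ESC control list, matched on exact bins, out of 137221 bin pairs in any of the 4 lists. They were 17.8% of the 50475 NPC control loops that neither ESC list held. The other 41482 loops acquired in NPC control were not listed in NPC auxin and are called absent below. All groups came from F123 mouse ESCs in which CTCF is fused to an auxin-inducible degron (CTCF-AID), so that the untreated groups carry the degron as well. NPC auxin cells were differentiated in the presence of auxin and NPC control cells without it, and both were collected on day 4. ESC auxin cells had received auxin for 48 h and ESC control cells for 0 h. Each group had 2 samples according to the titles and 1 deposited list for each of the callers MAPS and FitHiChIP.

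The assay was PLAC-seq, in which cross-linked chromatin is cut and religated in place and the ligation products that carry a chosen histone mark are pulled down before sequencing. The mark was H3K4me3, trimethylation of histone H3 at lysine 4, which sits at the start of active genes and, beside a repressive mark, at many silent developmental genes in stem cells. CTCF is a zinc finger protein that halts the loop-extruding cohesin ring, so that CTCF sites lie at domain borders and at the feet of many loops. Contacts between promoters and distal enhancers can also form without CTCF at their feet.

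The 5 coding promoters shown next belong to the genes whose promoter bins held the most kept loops, among bins with 1 coding gene and a promoter in the RefSeq table. Each sequence is the 250 bases before the transcription start in RefSeq's GRCm38.p6 assembly, the assembly that mm10 also names, written 5′ to 3′ on the gene's strand. Capitals mark matches to CAGNGGGC, a core of the CTCF motif, to the E-box CAGCTG, bound by basic helix-loop-helix proteins, and to the POU octamer ATGCNAAT, all searched on both strands.
Sox4 (chr13:28953700-28953949, minus strand): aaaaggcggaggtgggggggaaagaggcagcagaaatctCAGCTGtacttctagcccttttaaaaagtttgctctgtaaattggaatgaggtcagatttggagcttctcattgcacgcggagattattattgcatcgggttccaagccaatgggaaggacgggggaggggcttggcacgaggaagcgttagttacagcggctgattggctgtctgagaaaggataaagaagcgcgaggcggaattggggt
Bcl6 (chr16:23981284-23981533, minus strand): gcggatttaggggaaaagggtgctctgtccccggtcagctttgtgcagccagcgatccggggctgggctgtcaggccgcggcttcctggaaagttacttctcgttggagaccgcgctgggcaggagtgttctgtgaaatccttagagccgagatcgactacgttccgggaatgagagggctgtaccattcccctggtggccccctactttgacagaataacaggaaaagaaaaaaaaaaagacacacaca
Zfp503 (chr14:21989602-21989851, minus strand): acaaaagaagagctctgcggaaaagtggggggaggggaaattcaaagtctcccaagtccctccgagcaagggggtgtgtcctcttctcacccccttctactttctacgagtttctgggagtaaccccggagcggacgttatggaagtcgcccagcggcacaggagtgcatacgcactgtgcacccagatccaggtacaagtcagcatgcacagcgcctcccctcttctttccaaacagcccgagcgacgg
Nrp1 (chr8:128358823-128359072, plus strand): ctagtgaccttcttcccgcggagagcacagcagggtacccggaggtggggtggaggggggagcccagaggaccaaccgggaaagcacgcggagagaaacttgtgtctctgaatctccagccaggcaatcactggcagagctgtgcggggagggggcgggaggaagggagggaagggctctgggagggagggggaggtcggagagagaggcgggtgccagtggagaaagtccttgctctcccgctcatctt
Id2 (chr12:25096093-25096342, minus strand): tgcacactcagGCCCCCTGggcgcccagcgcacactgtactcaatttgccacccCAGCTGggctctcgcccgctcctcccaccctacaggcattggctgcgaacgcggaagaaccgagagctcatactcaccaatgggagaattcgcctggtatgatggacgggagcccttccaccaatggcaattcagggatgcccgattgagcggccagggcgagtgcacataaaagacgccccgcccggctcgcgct
Sox4 held 1 E-box match and Id2 held 1 E-box match and 1 match to the CTCF core, while Bcl6, Zfp503 and Nrp1 held none of the 3 motifs in these windows. Across promoters in bins with kept loops, 10.5% of 3755 windows matched the CTCF core, against 11.4% of 6291 windows in bins with acquired loops of which none was kept and 8.95% of all 21263 promoters. The E-box stood in 11.5% of windows with kept loops, against 12.7% of those with none kept and 12.1% of all promoters. For the octamer the shares were 2.32% with kept loops, against 2.02% with none kept and 2.75% of all. For each motif the share with kept loops lay close to the share with none kept. The median GC content of windows with kept loops was 61.2%, against 59.2% where none was kept and 55.6% over all promoters.

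Behind the FitHiChIP lists stood 59961568 contacts in NPC auxin, 52337421 in NPC control, 48307867 in ESC auxin and 47519917 in ESC control. MAPS listed 41667 loops in NPC auxin, 82861 in NPC control, 27610 in ESC auxin and 56714 in ESC control. A single list stands for each group, so differences between groups could be neither replicated nor tested. The 95% intervals given below are exact binomial ones, cover counting error only and treat loops as independent, although the 8993 kept pairs formed 6775 clusters of adjacent pairs. Fewer cells with a contact and fewer contacts per cell cannot be told apart in these bulk samples. No measure of RNA or of CTCF protein entered, so neither the identity of the NPCs nor the depletion was checked here.

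Members were chosen by the MAPS calls, that is by contact counts, ratios and false discovery rates (FDRs) in the 4 lists, so these values only describe the choice. MAPS listed pairs with at least 12 contacts, a ratio of at least 2 over its background and an FDR under 0.01. Just inside those limits, 1112 kept loops (12.4%) had an FDR between 0.005 and 0.01 in NPC auxin and 591 (6.57%) had one in NPC control. Exactly 12 contacts were counted at 202 kept loops in NPC auxin and at 277 in NPC control. Just outside the rule, 11448 absent loops (27.6%) had an NPC auxin loop within 1 bin at both anchors. On the ESC side, 4624 kept loops (51.4%) had a loop of either ESC list within 1 bin at both anchors, as had 39.4% of absent loops. A majority of the kept loops thus lay beside a contact already called in ESCs, and 4369 had none that near.

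Chosen to pass the limits in both NPC lists, the kept loops had like unscaled numbers of contacts with and without auxin. Their median count was 25 in NPC auxin, with quartiles of 18 and 35, and 25 in NPC control, with quartiles of 18 and 36. The highest was 449 in NPC auxin and 451 in NPC control. More contacts were counted in NPC auxin at 4473 kept loops, fewer at 3882 and equal numbers at 638. At a difference of at least 2-fold, 29 kept loops were higher in NPC auxin and 132 were lower. The median log2 ratio of NPC auxin to NPC control was 0, with quartiles of -0.22 and 0.25, whereas all 22391 loops shared by both NPC lists had a median of -0.07 and the 5954 loops called in all 4 lists one of -0.21. Scaled by the total contacts, the median of the kept loops was -0.20. The ratio of count to background had a median of 2.85 in NPC auxin and 3.16 in NPC control.

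**Figure D1:**
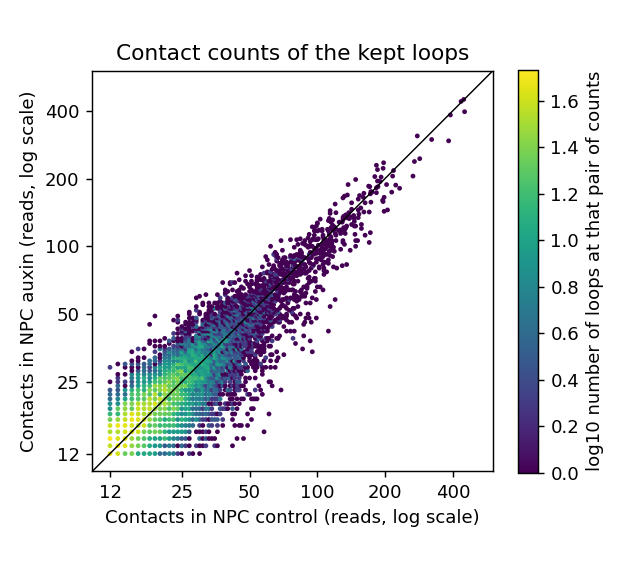
Contacts (reads, log scales) of each kept loop in NPC auxin (vertical axis) and NPC control (horizontal axis), coloured by the log10 number of loops at that pair of counts; the line marks equal counts. The cloud follows the line from 12 contacts upwards, with highest values of 449 in NPC auxin and 451 in NPC control.

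Kept loops joined 2 bins with H3K4me3 peaks more often than absent loops did, and in the MAPS lists they spanned longer distances. Both anchors held an H3K4me3 peak in 22.5% of kept loops (interval 21.6 to 23.4), against 13.7% of absent loops (13.4 to 14.1). In the FitHiChIP lists, where more loops join 2 peak bins, the shares were 71.3% of kept and 38.5% of absent loops. Of the acquired loops with peaks at both anchors 26.2% were kept, against 16.3% of those with a peak at 1 anchor. Promoter bins of protein-coding genes stood at both anchors of 11.2% of kept loops, against 6.98% of absent loops. A promoter bin stood at 1 anchor of 69.2% of kept and 65.3% of absent loops, and at neither anchor of 19.7% of kept and 27.7% of absent loops. The 1003 kept loops between promoter bins had a median length of 410 kb, a median of 29 contacts in NPC auxin and 28 in NPC control.

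Distance and peak class moved together with the kept share. Of the 3715 acquired loops under 100 kb 408 were kept, or 11.0%, followed by 14.1% from 100 to 190 kb, 18.6% from 200 to 490 kb and 22.6% from 500 to 1000 kb. With peaks at both anchors the same classes gave 12.9%, 18.4%, 26.6% and 37.4%, and with a peak at 1 anchor 10.6%, 13.3%, 17.2% and 19.5%. Among these classes of distance and peak the largest share was that of the longest contacts between marked bins, 677 of 1810. The median distance was 330 kb for kept loops (quartiles 210 and 500), against 270 kb for absent loops (quartiles 170 and 430), a difference of 60 kb. That order turned round in the FitHiChIP lists, where the difference was -10 kb, and at an FDR under 0.0001 in both NPC lists, also -10 kb. Within classes of FDR and distance it was 9.0 kb, but those classes hold distance nearly fixed. A small difference there is built in and does not bear on the 60 kb. Loops that were stronger in NPC control were kept more often, with 29.9% kept in the strongest of 5 equal FDR classes, then 18.3%, 15.8%, 13.7% and 11.3%. In the strongest class the share kept was 13.5% under 100 kb, 38.0% from 200 to 490 kb and 34.4% from 500 to 1000 kb. In each of these 5 classes a peak at both anchors went with a larger kept share than a peak at 1 anchor, from 33.4% against 29.1% in the strongest to 18.1% against 10.4% in the weakest.

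**Figure D2:**
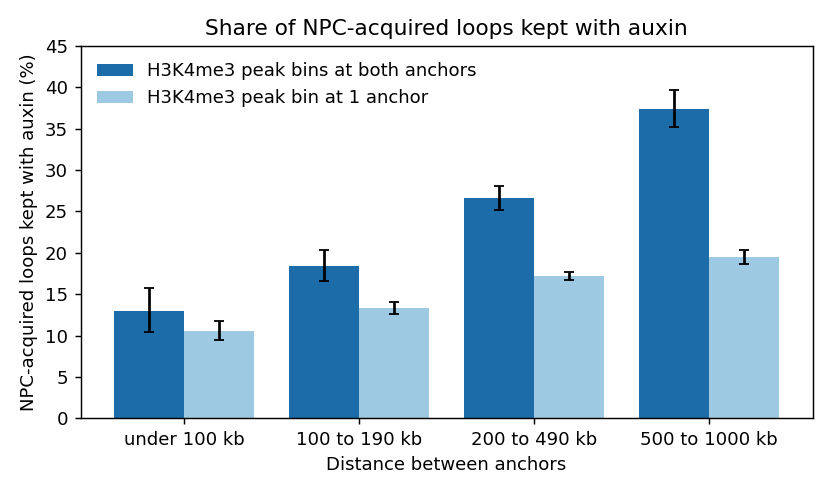
Percent of NPC-acquired loops kept with auxin (vertical axis) by distance between anchors (horizontal axis), for loops with H3K4me3 peak bins at both anchors and at 1 anchor; bars are shares and error bars exact 95% binomial intervals. The share increases with distance in both classes, up to 37.4% for peaks at both anchors and 19.5% for a peak at 1 anchor.

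The other caller gave a similar share, while the chromosomes differed somewhat. Over the 19 autosomes the kept share averaged 17.8% ± 1.97 (SD). The lowest was 14.5% on chromosome 2 (interval 13.4 to 15.6) and the highest 21.5% on chromosome 8 (20.1 to 22.9), so these intervals do not overlap. FitHiChIP, given the same rule, kept 4594 of its 24928 acquired loops, or 18.4%. Of the 8993 kept loops, FitHiChIP listed 24.5% in NPC auxin, 40.1% in NPC control, 2.47% in ESC auxin and 2.78% in ESC control. For absent loops the same shares were 1.41% in NPC auxin, 21.3% in NPC control, 0.648% in ESC auxin and 1.70% in ESC control. Both NPC lists of FitHiChIP held 1805 kept loops (20.1%), of which 1513 were in neither of its ESC lists. The single members thus differed between callers much more than the share did.

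Most marked feet of the kept loops were already marked in ESCs. Kept loops had 11015 NPC peak anchors, of which 85.1% were peak bins in the ESC lists too, 11.0% were not listed in ESCs and 3.91% were listed there without a peak. Among the 47172 peak anchors of absent loops these shares were 81.9%, 14.6% and 3.43%. Among bins also listed in ESCs, a peak in NPC lists only stood at an anchor of 4.68% of kept and 3.86% of absent loops. That count leaves out anchors not listed in ESCs, which were 11.0% of the peak anchors of kept and 14.6% of those of absent loops. The difference in the count turned round to -0.24 percentage points among pairs with no ESC loop within 1 bin. Reads at the peak anchors were higher in NPCs relative to all listed bins. The number of short-range reads of a bin, which MAPS uses as a measure of local pull-down, was compared as log2 NPC control over ESC control, centred on the median of all 31070 bins listed in both. Its median was 0.52 at 4099 peak bins of kept loops, against 0.37 at 10057 peak bins of absent loops, where a bin may hold loops of both kinds. It was above 0 at 81.9% of the peak bins of kept loops and at 76.0% of those of absent loops. At the other bins of kept loops it was -0.09, with 36.2% above 0. The rise at peak bins was not particular to acquired loops. At 3593 peak bins of the loops called in all 4 lists the median was 0.36, with 76.0% above 0. In NPC auxin over ESC auxin the median was 0.46 at peak bins of kept loops and 0.37 at those of absent loops, and -0.16 at the other bins of kept loops. NPC auxin over NPC control gave -0.09 at peak bins of kept loops and -0.07 at those of absent loops. Values at peak bins of kept loops thus exceeded those of absent loops in the comparisons of NPCs with ESCs, and not in NPC auxin over NPC control. The part of local reads in the calls was not tested.

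Kept loops were spread unevenly over promoter bins. Of 9657 promoter bins with an acquired loop, 3576 (37%) had at least 1 that was kept, and 8225 of the 41116 ends of acquired loops in promoter bins (20%) belonged to kept loops. The median such bin had 1 kept loop and 1963 bins had just 1, while 353 had at least 5 and 95 at least 10. ESC control already had loops at 2808 of the 3576 bins (78.5%). The 20 bins with the most kept loops held 467 of them (5.19% of all), with 18 to 38 each, and 37.0% to 78.3% of their acquired loops were kept. All 20 were H3K4me3 peak bins in the ESC lists as well. So were 85.1% of the NPC peak anchors of all kept loops, a share counted per loop end and not per promoter bin. These bins were chosen for their kept loops, so their counts are a description.

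Maf, which encodes a basic leucine zipper factor of lens and sensory neuron development, held the most (chromosome 8, 115700001 to 115710000). Its bin had 38 kept of 87 acquired loops, within totals of 49 loops in NPC auxin, 99 in NPC control, 2 in ESC auxin and 14 in ESC control. The kept partners lay 290 to 980 kb away, and the nearest had 38 contacts in NPC auxin and 57 in NPC control. A group of 8 partners from 710 to 780 kb on the other side had 15 to 33 contacts in NPC auxin and 14 to 33 in NPC control. Sox4, a SoxC factor that promotes neuronal differentiation, had 33 kept of 75 acquired loops (chromosome 13, 28950001 to 28960000), within 56 in NPC auxin, 93 in NPC control, 9 in ESC auxin and 20 in ESC control. Its strongest kept partner, 110 kb away, had 91 contacts in NPC auxin and 65 in NPC control, and its farthest, at 1000 kb, had 23 in NPC auxin and 21 in NPC control. Kept contacts of Sox4 thus included strong near ones, whereas those of Maf began at 290 kb.

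Bcl6 encodes a transcriptional repressor that favours neurogenesis in the mouse cortex, and 32 of its 48 acquired loops were kept (chromosome 16, 23980001 to 23990000). Every kept partner lay after the bin, meaning at higher coordinates, 270 to 1000 kb away, with a median of 18 contacts in NPC auxin and 23.5 in NPC control. Myc, the growth-promoting basic helix-loop-helix factor, kept 27 of 52 (chromosome 15, 61980001 to 61990000), and 25 of the partners lay after the bin, 320 to 960 kb away. Myc also had more loops in ESCs than Maf, Sox4 and Bcl6, with 26 in ESC auxin and 38 in ESC control beside 54 in NPC auxin and 83 in NPC control. Zfp503, a zinc finger repressor also called Nolz1, kept 26 of 60 (chromosome 14, 21980001 to 21990000), all after the bin. Its nearest kept partner, 170 kb away, had 67 contacts in NPC auxin and 67 in NPC control. At 4 adjacent partners 790 to 820 kb away, NPC auxin had 17 to 24 contacts and NPC control 44 to 55. These are among the 132 kept loops with an at least 2-fold lower count in NPC auxin. Nrp1, the neuropilin receptor for semaphorins and VEGF, kept 25 of 36 (chromosome 8, 128350001 to 128360000). Its only kept partner after the bin, 140 kb away, had 68 contacts in NPC auxin and 78 in NPC control.

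**Figure D3:**
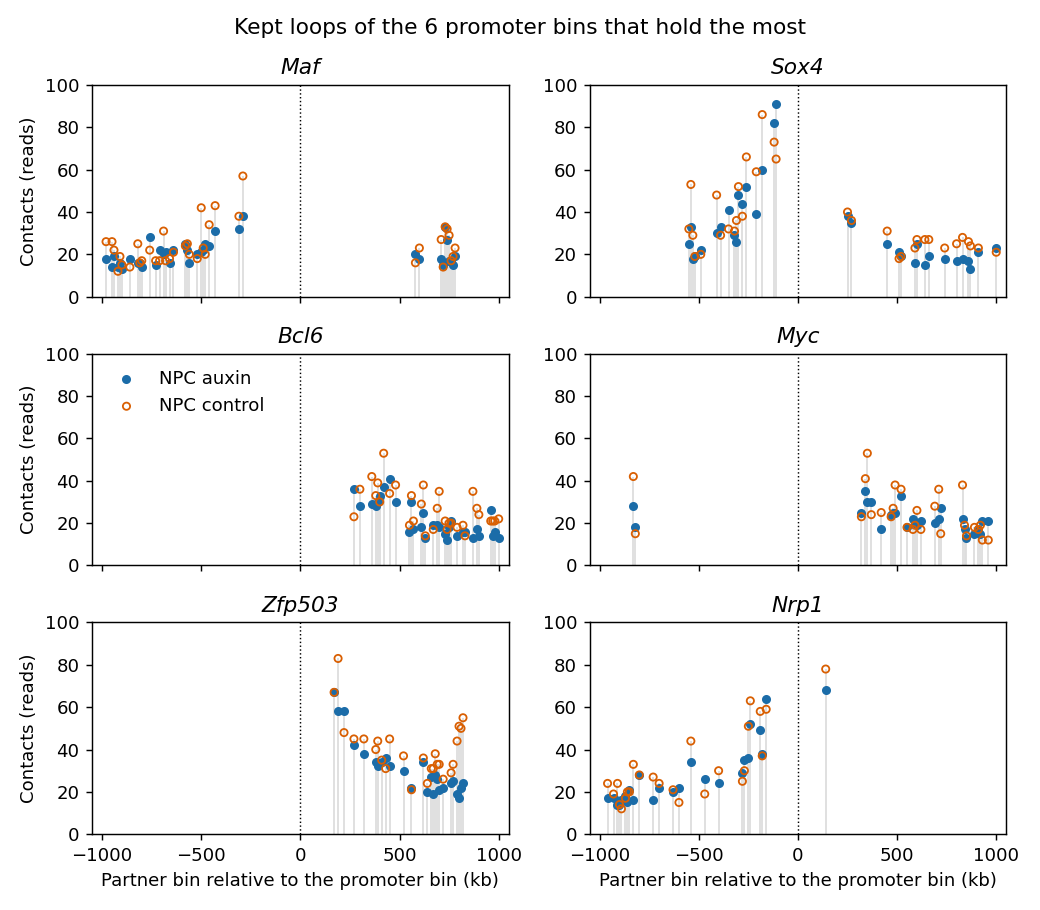
Contacts (reads, vertical axes) of the kept loops of 6 promoter bins in NPC auxin (filled) and NPC control (open) by the position of the partner bin relative to the promoter bin (kb, horizontal axes; dotted line, promoter bin). Partners of Bcl6 and Zfp503 lie on 1 side, those of Sox4 on both sides with 17 before and 16 after, and the highest NPC auxin counts of Sox4, Zfp503 and Nrp1 lie at their nearest partners.

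Id2, a helix-loop-helix inhibitor of proneural factors, kept 24 of 57 acquired loops (chromosome 12, 25090001 to 25100000), all with partners after the bin, and had 3 loops in ESC auxin and 6 in ESC control. The T-box factor Tbx2 kept 23 of 39, and its kept loops had the highest median among the 20 bins, 41 contacts in NPC auxin and 40 in NPC control. The bin shared by Tshz3, a teashirt zinc finger factor, and Gm36722 kept 23 of 40. Foxc1, a forkhead factor of mesenchyme, neural crest and meninges, kept 23 of 53. Msi2, which encodes the Musashi RNA-binding protein of neural stem cells, kept 22 of 36, all with partners before the bin. Nrip1, a nuclear receptor corepressor, kept 21 of 48, with 1 loop in ESC auxin and 6 in ESC control. The bin of the retinol dehydrogenase gene Rdh10, which feeds retinoic acid synthesis, and the ribosomal protein gene Rpl7 kept 20 of 34. Cited2, a CBP/p300-binding coactivator, kept 20 of 54, and Sp8, a zinc finger factor of forebrain patterning, 18 of 45.

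Pik3r1, the regulatory subunit of phosphoinositide 3-kinase, kept 19 of 34, the strongest being 40 kb away with 222 contacts in NPC auxin and 196 in NPC control. Prickle1, a planar cell polarity gene, kept 19 of 35 and had 0 loops in ESC auxin and 2 in ESC control. Zfp703, a zinc finger cofactor, kept 18 of 23, the largest share of the 20, and its strongest loop had 128 contacts in NPC auxin and 129 in NPC control. Zfp36l1, which promotes decay of AU-rich mRNAs, shares its bin with Gm52006 and kept 18 of 27. Runx1, a runt-domain factor of blood and sensory neurons, kept 18 of 34.

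**Figure D4:**
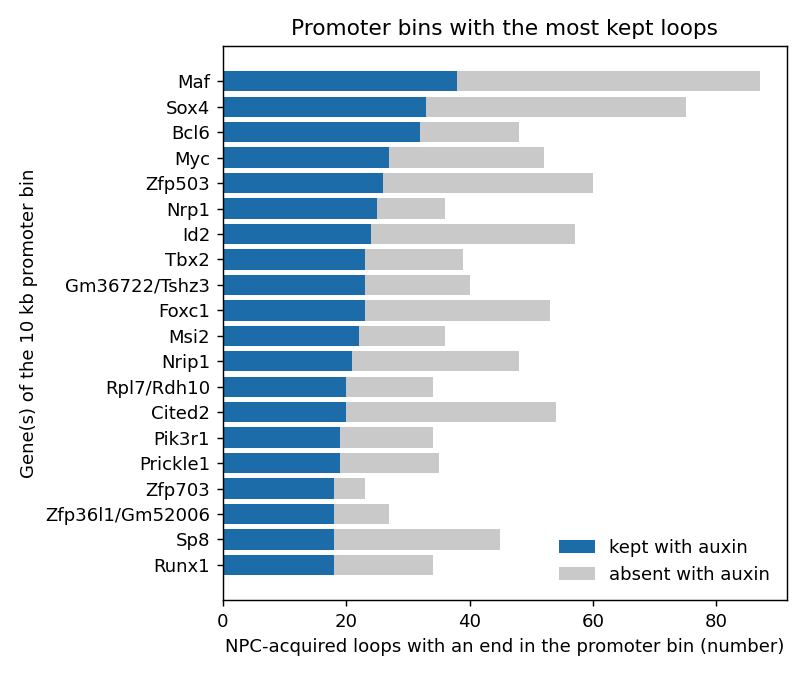
Number of NPC-acquired loops (horizontal axis) with an end in each of the 20 promoter bins that hold the most kept loops (vertical axis), split into those kept and those absent with auxin. Maf has the most kept loops, 38 of 87, and Zfp703 the largest kept share, 18 of 23.

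Kept partners of a promoter mostly lay on 1 side of it. At 10 of the 20 bins every kept partner was on the same side, and at 14 at least 90% were. Over the 20 bins, 412 of 467 kept loops (88.2%) lay on their bin's main side, and 364 of the 450 absent loops of the same bins (80.9%) lay on that side too. The 2 measures share their bins, and the main side was read from the kept loops. Rpl7/Rdh10 had 12 of 20 kept loops on its main side and 13 of 14 absent ones, while Tbx2 had 19 of 23 kept and 7 of 16 absent ones. Short-range reads at the 20 bins were higher in NPCs. Centred log2 values ran from 0.63 at Myc to 2.42 at Nrip1 in NPC control over ESC control, with a median of 1.30. They were above 0 at 20 of 20, beside 81.9% of all peak bins of kept loops. In NPC auxin over NPC control the values ran from -0.29 to 0.10, with a median of -0.14. They were above 0 at 3 of 20, beside 27.7% of all peak bins of kept loops. The 20 bins were chosen for loops called in NPCs only, which bears on these counts.

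Promoters differed widely in how many acquired loops they kept. Among the 401 promoter bins with at least 15 acquired loops, the median share kept was 24.2%, with quartiles of 11.8% and 38.9%, and 40 bins kept over 50%. Sgms1, a sphingomyelin synthase gene, stood at the top with 16 of 19 (84.2%, interval 60.4 to 96.6), all between 100 and 420 kb away. After Zfp703 followed the bin shared by Zfyve26 and the recombination gene Rad51b with 15 of 20 (75%), Nrp1 with 69.4% and Adpgk, an ADP-dependent glucokinase gene, with 13 of 19 (68.4%). At Sgms1 the NPC auxin list held more loops in all than the NPC control list, 36 in NPC auxin against 31 in NPC control, and at Zfyve26/Rad51b it held 41 in NPC auxin against 34 in NPC control. These high shares depended on the caller. FitHiChIP kept 3 of 9 at Sgms1, 11 of 41 at Zfp703 and 2 of 11 at Zfyve26/Rad51b. It kept 12 of 36 at Nrp1 and 3 of 13 at Adpgk.

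At the other end, 26 of the 401 bins kept none. Flrt3, a membrane protein of cell adhesion and axon guidance, kept 0 of 35, and the kinase gene Camk2d 0 of 31, followed by Samd5 with 0 of 27 and the heparan sulfate sulfotransferase gene Hs3st3b1 and the pluripotency factor gene Klf4 with 0 of 23 each. Total loops at Flrt3 were 2 in NPC auxin, 36 in NPC control, 0 in ESC auxin and 4 in ESC control. Klf4 had 5 loops in NPC auxin and 26 in NPC control, and Camk2d had 0 in NPC auxin and 31 in NPC control. Unscaled short-range reads at Klf4 were 1471 in NPC auxin and 1367 in NPC control. The Vcan bin, where the series targeted CTCF with dCas9 in groups not used here, kept 0 of 10. FitHiChIP kept 1 of 10 at Camk2d and 2 of 15 at Klf4. It kept 0 of 14 at Flrt3, 0 of 22 at Samd5, 0 of 15 at Hs3st3b1 and 0 of 12 at Vcan.

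The gene lists placed these promoters among pathways, with 619 kept ends in 329 distinct bins of 17 lists. Since a list's loops crowd in a few bins, each share is given beside the 20% of all promoter bins and, in the lists that 1 bin moves most, without its leading bin. Notch and proneural genes, which choose between progenitor and neuron, kept 51 of 156 ends (32.7%, interval 25.4 to 40.7). Of the 20 genes, 19 had an acquired loop and 13 a kept one, beside 4060 with a kept one of all 20443 genes with a promoter bin. Acquired loops per gene were not matched, so these counts of genes are not directly comparable. Id2 supplied 24 of the 51 ends. Without it the share was 27.3%, with an interval of 18.8 to 37.1 that covers the share of all promoter bins. Next to Id2 stood the Notch target Hey1 with 5 of 11, the ligand Jag1 with 4 of 25 and the proneural gene Atoh1 with 4 of 8, whereas the ligand Dll4 had 0 of 3 and Notch1 0 of 1. Hox genes, which set position along the body axis, kept 139 of 500 (27.8%, interval 23.9 to 32.0). Acquired loops stood at 38 of the 39 genes and kept loops at 36, and some of the genes share a bin. The bin of Hoxb7 and Hoxb8 kept 11 of 22 and that of Hoxa5 and Hoxa6 11 of 19, while Hoxd11 kept 3 of 37 and Hoxd4 0 of 10.

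The 5 signalling lists kept 23.0% to 27.6% in MAPS, and in the FitHiChIP lists only Hedgehog stayed above the share of all promoter bins. FGF ligands, receptors and feedback genes kept 40 of 145 (27.6%), of which the feedback inhibitor Spry2 held 16 of 31 and the receptor Fgfr2 14 of 36, and without Spry2 the share was 21.1% (interval 14.0 to 29.7). Hedgehog genes kept 44 of 179 (24.6%), with 13 of 41 at the ligand Shh, 13 of 30 at the transcription factor Gli3 and 9 of 18 at the coreceptor Gas1, but 3 of 32 at the receptor Ptch1. Gli3 had loops in NPC auxin (16) and NPC control (30) and 0 in either ESC list. Retinoic acid genes kept 23 of 88 (26.1%), led by the receptor Rarb with 9 of 26, the retinaldehyde reductase Dhrs3 with 5 of 8 and the degrading enzyme Cyp26a1 with 4 of 8. Ephrins and Eph receptors, which guide cells by contact repulsion, kept 51 of 213 (23.9%), with 16 of 38 at Efna5, 15 of 51 at Epha4 and 10 of 32 at Ephb1, but 5 of 48 at Efnb2. Wnt receptors and targets kept 65 of 283 (23.0%), of which Sp8 held 18, the feedback gene Axin2 16 of 36 and the effector Tcf7l2 7 of 25, while the ligand Wnt5a kept 2 of 35. Without Sp8 the Wnt share was 19.7%, and without Efna5 that of ephrins and Eph receptors was 20%.

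The shares of 6 further lists ran from 16% to 21.7%. Neural progenitor genes kept 62 of 324 (19.1%), and without Msi2 40 of 288 (13.9%). Sox11, a SoxC factor like Sox4, kept 10 of 47, Lhx2, a LIM factor of the cortex, 6 of 17 and Sox1 4 of 19, while Sox2 kept 1 of 24, Pou3f3 1 of 29, and the POU factor Pou3f2, the adhesion molecule Cdh2 and Zic1 kept 0 of 15, 0 of 17 and 0 of 10. Irx, Six-family and Dlx homeobox genes kept 46 of 284 (16.2%), with 9 of 38 at Irx5 and 7 of 15 at Six4. Pax, Nkx and Zic patterning genes kept 21 of 111 (18.9%), with 5 of 18 at the ventral neural tube factor Nkx6-1 and 3 of 11 at En1, the midbrain-hindbrain factor. TALE homeobox genes kept 21 of 105 (20%), with 13 of 42 at Meis1 and 3 of 33 at its relative Meis2, and 12.7% without Meis1. Neural crest genes kept 30 of 138 (21.7%), of which Foxd3 held 10 of 13, Msx1 5 of 11 and Twist1 5 of 26, while Tfap2a kept 1 of 26, and without Foxd3 the share was 16%. Neuron genes kept 4 of 25 (16%).

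Genes of other lineages kept loops as well. Pluripotency genes kept 22 of 115 (19.1%), of which Tbx3 held 12 of 48, Klf5 3 of 10 and Zfp42 2 of 3. Mesoderm and endoderm genes kept 15 of 55 (27.3%), with 5 of 13 at Gata6, 5 of 9 at Sox17 and 4 of 13 at Foxa2, and the Gata6 loops had 59 to 131 contacts in NPC auxin and 42 to 129 in NPC control. Genes of CTCF and cohesin kept 4 of 34 (11.8%), 1 each at Smc3, Mau2, Pds5b and Stag1, and Ctcf kept 0 of 1. Housekeeping genes kept 1 of 18 (5.56%), at Eef1a1, with an interval of 0.141% to 27.3% that covers the share of all promoter bins. In the FitHiChIP lists the share was 22.1% over all promoter bins, 25.7% for Notch and proneural genes, 23.4% for Hox genes and 24.4% for Hedgehog genes. Mesoderm and endoderm genes had 35.1% there (13 of 37), the highest of the lists. Their MAPS interval, 16.1 to 41.0, covers the share of all promoter bins. Lists above the whole in MAPS and below it in FitHiChIP were FGF at 15.9%, retinoic acid at 16.7%, ephrins and Eph receptors at 13.3%, Wnt at 18.5% and neural crest at 12.5%. Housekeeping genes had 20% there, and the place of these lists thus depended on the caller.

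**Figure D5:**
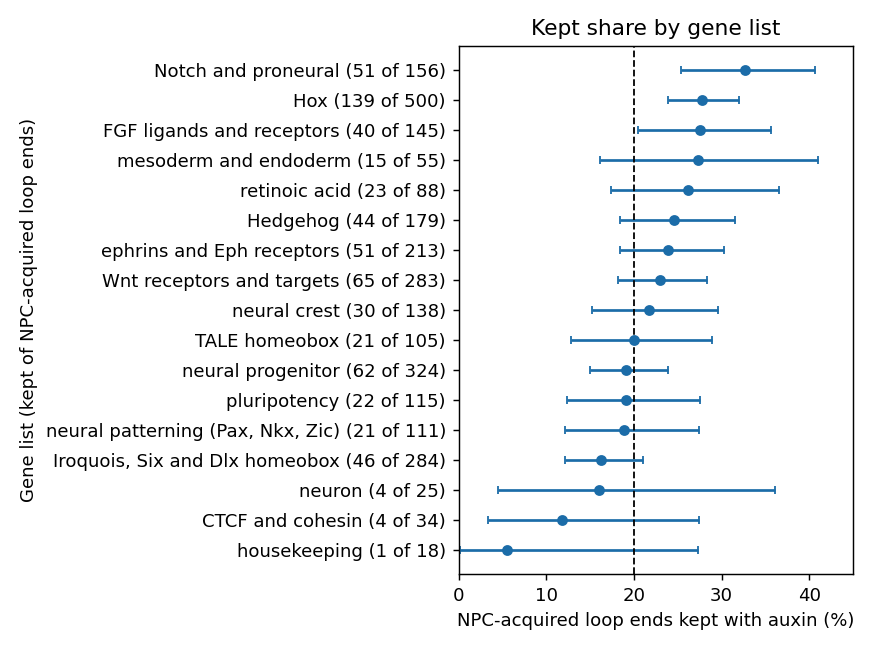
Percent of NPC-acquired loop ends kept with auxin (horizontal axis) in each gene list (vertical axis, with kept and acquired ends); points are shares, bars exact 95% binomial intervals and the dashed line all promoter bins. Notch and proneural genes stand highest at 32.7% and housekeeping genes lowest at 5.56%, and the intervals of the Notch, Hox and FGF lists lie wholly above the line, that of Notch only with Id2 and that of FGF only with Spry2.

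Single kept loops between promoter bins had up to 245 contacts in NPC auxin. The strongest in NPC auxin joined the kinase gene Tesk1 and Sit1, an adaptor gene of lymphocytes, 40 kb apart on chromosome 4, with 245 contacts in NPC auxin and 285 in NPC control. FitHiChIP listed it in NPC control with 279 contacts and not in NPC auxin, so only MAPS kept it. Chic2 and Pdgfra, the receptor for platelet-derived growth factor, were joined over 110 kb on chromosome 5 by 229 contacts in NPC auxin and 183 in NPC control. FitHiChIP listed this pair in both NPC lists and, with 92 contacts, in ESC control, so its absence from ESCs held for MAPS only. The bin of Actr1a and Sufu, a brake on Hedgehog signalling, met Trim8 110 kb away with 203 contacts in NPC auxin and 192 in NPC control, and FitHiChIP listed it in neither ESC list. Bins of the chromosome 13 histone gene cluster (H2bc4, H1f6 and H4c3 with H3c3 and H2bc3) had 195 contacts in NPC auxin and 185 in NPC control, and FitHiChIP listed them in all 4 groups. Zfpm1, a GATA cofactor, and Zc3h18 with Gm39270 had 188 contacts in NPC auxin and 203 in NPC control, with a FitHiChIP loop in ESC control.

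At the caller's upper limit of 1000 kb, 5 kept loops listed by both callers in both NPC groups were taken as the longest. Foxc1 met Wrnip1, which encodes a helicase-interacting ATPase, with 35 contacts in NPC auxin and 17 in NPC control, the only pair of the 5 past a 2-fold difference. Sox4 met a bin without a coding promoter with 23 contacts in NPC auxin and 21 in NPC control. Osr1, a zinc finger factor of intermediate mesoderm, had 18 contacts in NPC auxin and 20 in NPC control, and Map3k20, a stress kinase gene, had 18 in each. FitHiChIP also listed the Map3k20 pair in ESC auxin with 11 contacts. B4galnt4, a glycosyltransferase gene, had 17 in NPC auxin and 16 in NPC control. The loops of Map3k20 and B4galnt4 had an ESC loop within 1 bin, and those of Foxc1, Sox4 and Osr1 had none.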

How the data were processed

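The authors' files were 8 deposited lists of loops, 1 per group and caller (MAPS or FitHiChIP, per the labels' descriptions), for 4 groups of 2 samples. BWA, Picard and the build mm10 are named in the submitters' processing notes, while pooling of samples before calling is not stated there. The other 6 samples, of 3 groups with dCas9, were not used here. Per the file headers, the deposited MAPS lists give for each pair of 10 kb bins a read count, the expected count (a signal of the caller's background), their ratio, an FDR (a p-value adjusted by the caller), short-range reads and a peak class per anchor, which both lists of a cell type share. The deposited FitHiChIP lists give counts, q-values and the expected fraction of all contacts, from which the total contacts were computed. MAPS lists span 20 to 1000 kb on 19 autosomes, and FitHiChIP lists reach 2000 kb. All of these are the authors' values, and pairs that were not called are in no list.

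Loops were matched on exact bins, distances run between anchor starts, and shares carry Clopper-Pearson intervals at 95%. The intervals and the depth behind them cover counting error only. A promoter bin is the bin of a RefSeq start site (17492 genes) or otherwise of a gene end in a peak bin (2951 genes), 20443 of 21887 coding genes in all. A bin with several genes counts once per list. Set operations were tested on simulated lists. Python 3.11.15, pandas 2.3.3, numpy 2.4.6, scipy 1.17.1 and matplotlib 3.10.9 were used. Named were the 20 promoter bins with the most kept loops, the 5 with the highest and the 5 with the lowest share kept among bins with at least 15 acquired loops, the 5 strongest kept loops between promoter bins, the 5 longest in both callers, the 3 leading genes of each list, and Vcan. 1 item of this rule is not reported here. Other list members are named as contrasts chosen after their values were seen. The members and lists were chosen with earlier results of these data known. Alternatives were the other caller, a tolerance of 1 bin, stricter FDR and ratio limits, equal peak classes, merged adjacent pairs and classes of FDR and distance.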

Additional observations from a re-analysis of the deposited data

Results flagged for a closer look

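MAPS listed autosomes and distances up to 1000 kb, and the FitHiChIP lists hold loops beyond both limits, which entered the FitHiChIP values above only as part of their totals. On chromosome X, 101 FitHiChIP loops were in both NPC lists and in neither ESC list, of 592 loops acquired in NPC control there (17.1%). Over 1000 kb, 775 FitHiChIP loops were in both NPC lists and in neither ESC list, of 3371 acquired (23.0%). Neither has a replicate check.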

How the results depend on the processing

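The number kept was 4594 with FitHiChIP, 2757 at an FDR under 0.0001, 3175 at a ratio of at least 3 and 3705 in bins of equal peak class. The kept share was 18.4%, 11.6%, 13.3% and 20.4% under these, 29.7% within 1 bin and 21.0% with adjacent pairs merged. The excess of both-peak anchors, 8.77 points, was 32.8, 13.0, 6.05 and 10.8 in the first 4 settings and 6.33 within 1 bin. For promoters at both anchors, 4.17 points as reported, it was 17.2, 5.99, 2.43, 5.83 and 3.28. The distance difference was -10, -10, 100 and 70 kb, and 70 kb within 1 bin. It was 9.0 kb within classes of FDR and distance, where it is small by construction. The cause of the reversals was not tested. The NPC-only peak difference, over bins also listed in ESCs, was 1.85 points with FitHiChIP and 1.43 at the stricter FDR. It was 1.53 at the higher ratio and 0.33 within 1 bin. The median log2 count ratio was 0.0489 with FitHiChIP, 0.0525 within 1 bin and 0.0544 with equal peak classes. Kept ends of the gene lists were 291 with FitHiChIP and 1109 with neighbouring bins. Of the 20 named bins, FitHiChIP gave fewer kept loops at 20, and neighbouring bins gave equal numbers at 8 and more at 12. Chosen after seeing the data were FitHiChIP on autosomes up to 1000 kb (3714 loops, both-peak excess 36.4, promoter excess 18.8, distance -40 kb, NPC-only 1.51, log2 0.0509) and pairs with no ESC loop within 1 bin (4369 loops, 14.8% kept, 10.2, 5.68, 70 kb, -0.24 and 0.0525 in that order). Depth limits what can be said of a loop not listed, which may have missed a threshold. No paired analysis was possible because each group has 1 list, and no list per replicate was used here, so none could be left out.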

Other observations

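Promoter tables of coding genes leave out the genes of microRNAs, the short RNAs that bind target mRNAs through their seed, bases 2 to 8. Of 963 hairpin genes, 344 lay in a bin with an acquired loop and 103, in 91 distinct bins, in a bin with a kept one. That is a smaller share of the 344 than the 37% of promoter bins. The first share counts genes, some in the same bin, and the second counts bins. Acquired loops per bin were not matched, so the 2 shares are not directly comparable. The 5 mature microRNAs shown are of neural, Hox-cluster or let-7 hairpins in bins with a kept loop and were chosen after their values were seen. Sequences are RefSeq's (GRCm38.p6), 5′ to 3′, with the seed in capitals.
miR-9-5p (chr13:83738821-83738843, plus strand): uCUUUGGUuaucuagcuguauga
miR-10a-5p (chr11:96317186-96317208, plus strand): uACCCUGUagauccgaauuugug
miR-196a-5p (chr15:102973365-102973386, plus strand): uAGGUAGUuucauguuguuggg
miR-196b-5p (chr6:52230129-52230150, minus strand): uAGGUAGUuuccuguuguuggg
let-7i-5p (chr10:122985698-122985719, minus strand): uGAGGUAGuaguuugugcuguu
miR-196a-5p and miR-196b-5p share the seed AGGUAGU, and the other 3 have seeds of their own. The bin of Mir9-2, a hairpin of miR-9, which acts in neural progenitors, kept 7 of 32 acquired loops and held no coding promoter. Its loops numbered 17 in NPC auxin, 45 in NPC control, 8 in ESC auxin and 9 in ESC control. The Hox-cluster hairpins lie in bins of coding Hox genes and cannot be told apart from them here. Mir10a, in the bin of Hoxb4, kept 3 of 11, Mir196a-2, in the bin of Hoxc9 and Hoxc10, kept 4 of 9, and Mir196b, in the bin of Hoxa10, kept 3 of 17. The bin of Mirlet7i kept 3 of 7, with 7 loops in NPC auxin, 13 in NPC control, 3 in ESC auxin and 5 in ESC control.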
